A study of Homo sapiens with 2 samples.

Results

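The RAP proteins are small GTPases of the RAS family, and the genes described here are those of 5 GTPases (RAP1A, RAP1B, RAP2A, RAP2B and RAP2C), 3 exchange factors (RAPGEF1, RAPGEF2 and RAPGEF6) and 2 GTPase-activating proteins (SIPA1L1 and SIPA1L2). They share the name RAP or act on RAP proteins, and were chosen with earlier results of these data known. Other genes of these kinds are described further below. Every probe set annotated to 1 of the chosen genes alone was taken. This gave 10 genes with 36 probe sets, out of 18132 genes with 44988 probe sets annotated to a single gene. The samples were 2 arrays of HCT116, an established epithelial line from a human colorectal carcinoma. One culture had received lentivirus with a single shRNA against RAP1, called sh-RAP1-4# by the submitters and shRAP1 here, and the other lentivirus with a negative-control shRNA, here shNC. Both were infected at a multiplicity of infection of 20 and harvested at 72 h, and each group held 1 array. The labels give no animal or donor and no further allele, and no second shRNA against RAP1 is among the samples used here. The study asked how RAP1 acts on colorectal cancer cells.

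A RAP protein is active when bound to GTP and inactive when bound to GDP. Exchange factors load it with GTP, and GTPase-activating proteins speed up hydrolysis and so switch it off. RAP1A and RAP1B are best known for activating integrins and for strengthening cadherin junctions of epithelial cells, whereas RAP2 proteins act through the kinases TNIK, MINK1 and MAP4K4. The name RAP1 is also used for TERF2IP, a protein of the shelterin complex that binds telomeres through TRF2 and that is unrelated in sequence to the GTPases.

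The 2 arrays had a Pearson correlation of 0.997 over 49293 non-control probe sets on the log2 scale, with array medians of 78.9 (shRAP1) and 77.0 (shNC) on the linear scale. Since each group is a single array, differences are given as sizes, without a test or a replicate check, and the number of arrays limits their precision. Every difference is the log2 signal in shRAP1 minus that in shNC. A probe set counts as past the floor if at least 1 of its values was 78.0 or more on the linear scale (6.29 on the log2 scale), the median of all non-control values. The epithelial markers were 8 of 10 past the floor, summing to 35042 in shRAP1 and 34442 in shNC, and VIL1 and CDX1 were below it. Of the leukocyte markers 2 of 9 (CD68 and HLA-DRA) were past it, with sums of 458 and 406 in the same order, and of the fibroblast and endothelial markers 2 of 10 (VWF and KDR), with sums of 441 and 418. PTPRC, which marks leukocytes, was at 9.25 in shRAP1 and 11.4 in shNC, both far below the floor.

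TERF2IP had a signal of 624 in shRAP1 and 1311 in shNC, or 47.6% of the control. Its difference of −1.07 was 7.53 times the SD of the 500 genes nearest in brightness, and 1 of 10437 measured genes was lower. The value rests on 1 probe set (11757968_s_at). On their brightest probe sets, RAP1A was at 88.0% and RAP1B at 93.3% of the control. The sample titles give the target only as RAP1, and which of these transcripts the shRNA matches was not tested. None of the 36 probe sets of the RAP GTPase system differed by 1.5-fold in either direction, a size reached upwards by 0.173% and downwards by 0.186% of all probe sets past the floor. In these bulk RNA samples, fewer cells with a transcript and less of it per cell cannot be told apart.

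Promoter windows of 3 genes are shown because RAP1B was, with RAP1A and RAP2C, 1 of 3 genes whose probe sets were all lower, SIPA1L2 had the largest difference of the 10 genes, and 1 window of RAPGEF2 held the letters of the telomere repeat. They are RefSeq windows of build GRCh38.p14, from 250 bases before to 50 bases after an annotated start, read 5′ to 3′ on the strand of the gene. The RAP1B window is chr12:68610649-68610948 on the plus strand, that of SIPA1L2 is chr1:232630084-232630383 on the minus strand, and that of RAPGEF2 is chr4:159229128-159229427 on the plus strand. Capitals mark matches on either strand to the letters searched.
RAP1B: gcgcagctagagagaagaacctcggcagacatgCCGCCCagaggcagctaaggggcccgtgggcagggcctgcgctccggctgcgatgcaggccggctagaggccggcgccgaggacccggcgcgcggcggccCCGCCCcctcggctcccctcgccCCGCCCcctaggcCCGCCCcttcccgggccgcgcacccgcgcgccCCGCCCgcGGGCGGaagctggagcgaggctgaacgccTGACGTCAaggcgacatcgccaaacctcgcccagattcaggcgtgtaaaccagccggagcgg
SIPA1L2: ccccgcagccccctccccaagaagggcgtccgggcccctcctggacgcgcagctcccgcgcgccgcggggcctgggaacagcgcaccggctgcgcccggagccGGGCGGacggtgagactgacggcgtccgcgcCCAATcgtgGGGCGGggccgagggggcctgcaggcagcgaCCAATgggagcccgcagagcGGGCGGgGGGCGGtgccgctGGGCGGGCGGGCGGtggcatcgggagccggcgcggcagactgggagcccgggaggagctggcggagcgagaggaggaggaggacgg
RAPGEF2: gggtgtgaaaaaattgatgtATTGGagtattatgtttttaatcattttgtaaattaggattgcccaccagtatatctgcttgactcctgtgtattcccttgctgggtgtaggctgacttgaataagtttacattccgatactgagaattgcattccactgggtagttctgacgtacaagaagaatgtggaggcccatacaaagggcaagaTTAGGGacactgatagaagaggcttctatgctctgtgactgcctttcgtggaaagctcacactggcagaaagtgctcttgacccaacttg

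The letters searched on both strands were TTAGGG (the telomere repeat), GGGCGG (the GC box), CCAAT (read by NF-Y), TATAAA (the TATA box), TGACGTCA (the cyclic AMP response element), CACGTG (an E-box) and CCGGAAGT (a core read by ETS factors). All 10 genes matched the promoter table, with 16 windows because some genes have several annotated starts. The window of RAP1B held 6 GC boxes and 1 cyclic AMP response element, beginning 12 bases before the start. GC boxes were in 45.0% of the 35116 windows in the table and in 8 of the 16 windows here, while the response element was in 1.85% of all windows and in 1 of these 16. The window of SIPA1L2 held 7 GC boxes, of which the 3 nearest to the start overlap each other, and 2 CCAAT boxes. CCAAT was in 34.6% of all windows and in 5 of these 16. TTAGGG was in 9.05% of all windows and in 1 of these 16, the RAPGEF2 window shown, where it began 40 bases before an annotated start. That window also held a CCAAT box on the opposite strand, which began 230 bases before the start. The RAP1A window held none of the 7 runs of letters. Its GC content was 43.7%, against 75.7% for RAP1B, 79.7% for SIPA1L2 and a median of 58.7% over all windows. These are matches of letters, not binding sites.

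Among the GTPases, RAP1A and RAP1B were lower in shRAP1 on every probe set, and the RAP2 genes did not share 1 direction. RAP1A, which acts on integrin and cadherin adhesion, had a signal of 987 in shRAP1 and 1122 in shNC on its brightest probe set (11716097_a_at), or 88.0% of the control, a difference of −0.18. Its other probe sets past the floor gave 540 in shRAP1 and 623 in shNC, and 385 in shRAP1 and 450 in shNC. All 3 were therefore lower, with differences of −0.18, −0.21 and −0.23, between 1.29 and 1.46 times the SD of the 500 probe sets nearest in brightness. A dim probe set below the floor was also lower, at 23.8 in shRAP1 and 30.3 in shNC. Of all measured genes, 8.90% had a lower difference than RAP1A.

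RAP1B, the RAP1 gene known for its abundance in platelets, had 1358 in shRAP1 and 1456 in shNC on its brightest probe set (11716883_s_at), or 93.3% of the control, a difference of −0.10. Its second probe set past the floor had 795 in shRAP1 and 885 in shNC, a difference of −0.15. These sizes were 0.70 and 1.13 times the SD of the nearest probe sets. The probe set below the floor had 8.44 in shRAP1 and 8.58 in shNC, a difference of −0.024 far below the floor. Over RAP1A and RAP1B, 5 of 5 probe sets past the floor were lower in shRAP1, where 50.6% of all probe sets past the floor were lower by any size. With those below the floor it was 7 of 7. Probe sets of 1 gene on the same arrays are not independent, so these counts are not separate results. Both RAP1B probe sets past the floor and 1 of the 3 of RAP1A carry the name endings _s_at or _x_at, which mark probes that can match several transcripts. RAP1B had no more specific probe set past the floor, whereas RAP1A had 2, at −0.18 and −0.23.

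RAP2A, which signals through TNIK, had 857 in shRAP1 and 816 in shNC on its brightest probe set, a difference of 0.070. The other RAP2A probe set had 171 in shRAP1 and 167 in shNC, a difference of 0.033. Both were under the SD of the nearest probe sets. RAP2C, the X-linked paralogue, had 657 in shRAP1 and 667 in shNC, and 565 in shRAP1 and 574 in shNC on its second probe set, with a difference of −0.022 on both.

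RAP2B, the remaining RAP2 paralogue, gave opposite directions on its 2 probe sets past the floor. The brightest (11733946_at) had 2816 in shRAP1 and 2717 in shNC, a difference of 0.052. The second (11733944_at) had 160 in shRAP1 and 198 in shNC, a difference of −0.30 and 1.82 times the SD of the nearest probe sets. The remaining one, below the floor, had 69.6 in shRAP1 and 62.7 in shNC. The direction of RAP2B was thus set by the choice of probe set, and with the median of both it was −0.12. Over the 3 RAP2 genes, the 6 probe sets past the floor split evenly, 3 in each direction, around a median of 0.0051.

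**Figure D1:**
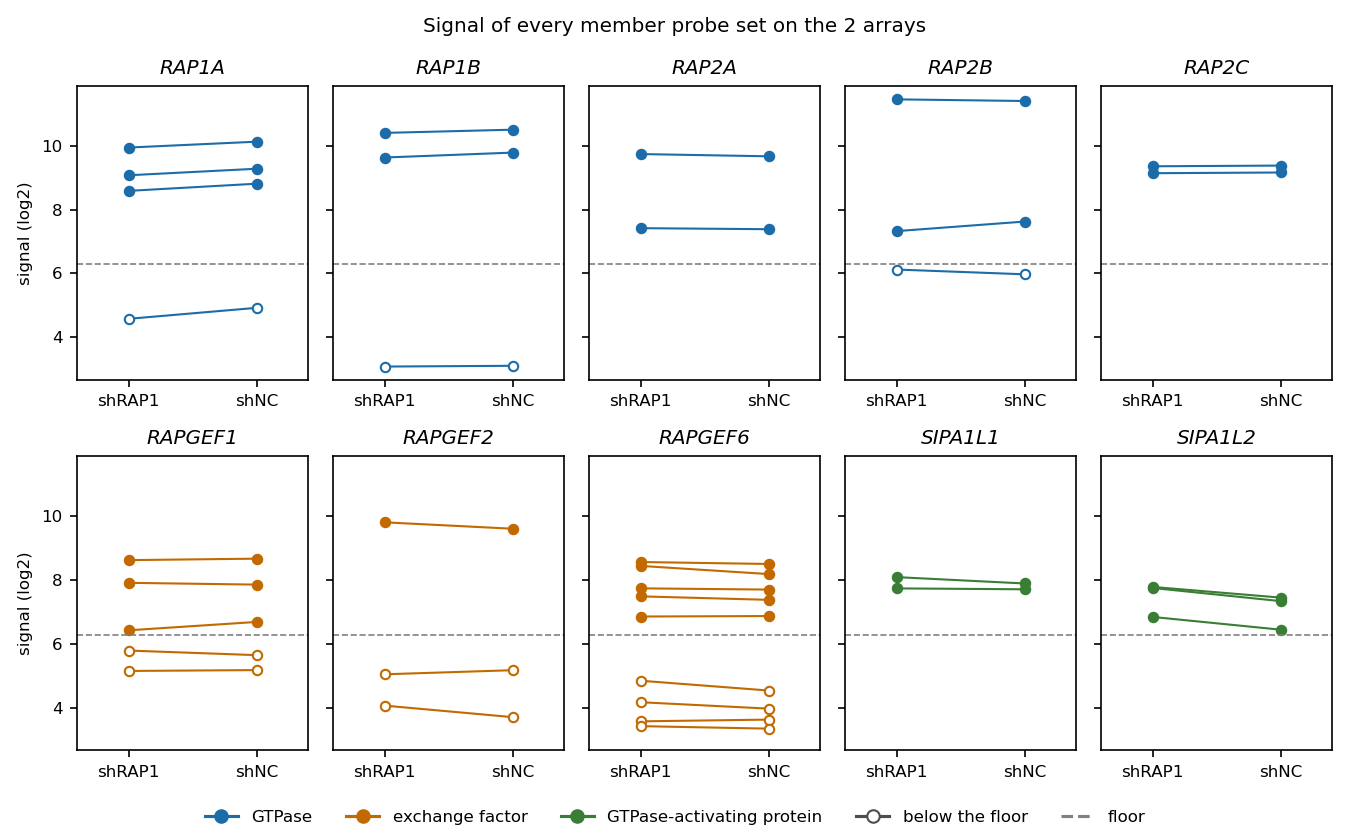
Signal (log2) of each of the 36 probe sets on the shRAP1 array (left) and the shNC array (right), 1 panel per gene, with a line joining the 2 values of a probe set. Open points are probe sets below the floor of 6.29 (dashed line); RAP1A and RAP1B lines all run up towards shNC and the 3 SIPA1L2 lines down.

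The exchange factors were mixed. RAPGEF2 (PDZ-GEF1), which carries a PDZ domain and activates RAP1 and RAP2, had 900 in shRAP1 and 783 in shNC, or 115% of the control, on the 1 probe set past the floor (11721608_s_at). This difference of 0.20 was 1.47 times the SD of the nearest probe sets, and 90.0% of measured genes had a lower one. The 2 probe sets below the floor differed from each other in direction, with 33.0 in shRAP1 and 36.1 in shNC on one, and 16.7 in shRAP1 and 13.0 in shNC on the other.

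RAPGEF6 (PDZ-GEF2), its closest relative, had 380 in shRAP1 and 364 in shNC on its brightest probe set (11758868_at), a difference of 0.061. Of its 5 probe sets past the floor 4 were higher, between 0.039 and 0.26, and 1 was at −0.015. The largest of them (11722314_a_at) had 349 in shRAP1 and 292 in shNC, or 119% of the control, and 1.61 times the SD of the nearest probe sets. The remaining 4 of its 9 probe sets were below the floor, with differences between −0.055 and 0.31.

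RAPGEF1, which is brought to membranes by CRK adaptors, had 396 in shRAP1 and 408 in shNC on its brightest probe set (11756422_s_at), a difference of −0.046. A second had 241 in shRAP1 and 232 in shNC, a difference of 0.056, so that the sign turned when probe sets ending in _s_at or _x_at were left out. Another (11742023_a_at) had 86.0 in shRAP1 and 103 in shNC, or 83.3% of the control, a difference of −0.26 close above the floor. The 2 probe sets below the floor were at 0.14 and −0.027.

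Both GTPase-activating protein genes were higher in shRAP1 on all 5 of their probe sets, each of which was past the floor. Of all probe sets past the floor 49.4% were higher, and 3 of the 5 are of SIPA1L2 alone. SIPA1L2 had the largest difference of the 10 genes. Its 3 probe sets had 221 in shRAP1 and 175 in shNC (11757924_s_at), 216 in shRAP1 and 162 in shNC (11744184_a_at), and 115 in shRAP1 and 87.1 in shNC (11744185_a_at). These are 126%, 133% and 132% of the control, with differences of 0.34, 0.41 and 0.40, and the shNC value of the last lay near the floor of 78.0. In size they were 2.03, 2.62 and 2.25 times the SD of the nearest probe sets. On its brightest probe set, 222 of the 10437 measured genes differed by more in the upward direction.

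SIPA1L1, known as SPAR from neurons and as E6TP1, a target of papillomavirus E6, had 273 in shRAP1 and 238 in shNC on its brightest probe set (11754219_a_at). This was 115% of the control, a difference of 0.20 and 1.204 times the SD of the nearest probe sets. The other had 214 in shRAP1 and 210 in shNC, a difference of 0.029. The size for SIPA1L1 thus came from 1 of its 2 probe sets, while the 3 of SIPA1L2 lay within 0.078 of each other.

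**Figure D2:**
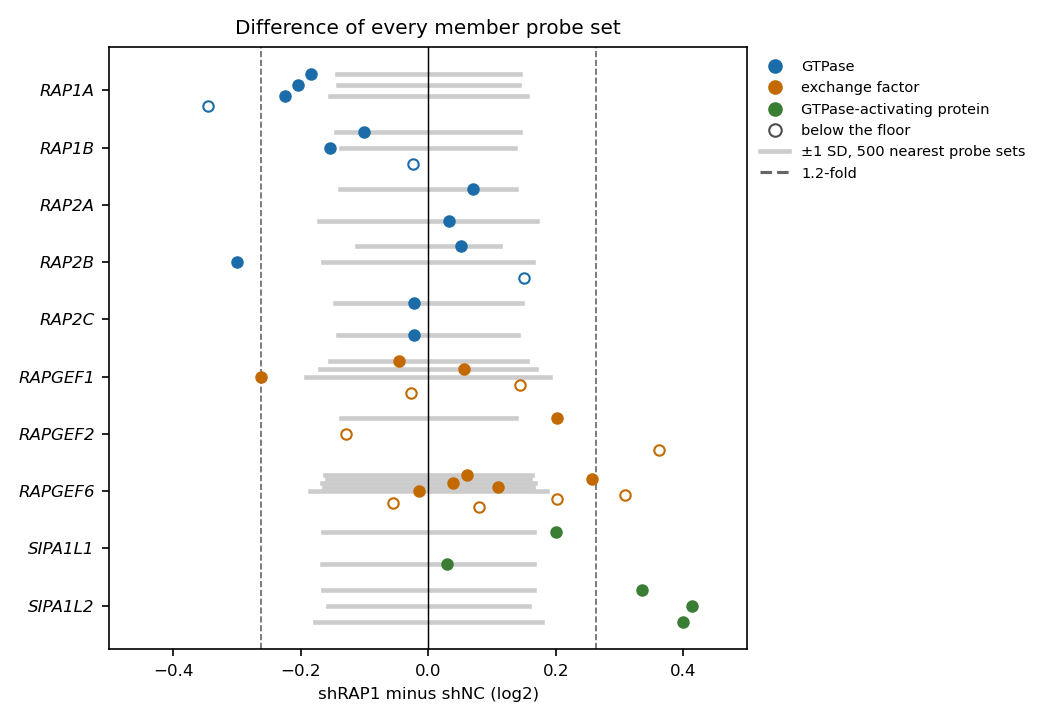
Difference (shRAP1 minus shNC, log2) of each of the 36 probe sets by gene, brightest probe set on top. Grey bars are 1 SD to either side of 0 over the 500 probe sets nearest in brightness, dashed lines are 1.2-fold and open points lie below the floor; past the floor, the 3 SIPA1L2 points and 1 RAP2B point lie beyond the dashed lines.

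Taking the brightest probe set of each gene, all 10 genes were past the floor, 6 were higher and 4 lower, and of all 10437 measured genes 53.2% were higher and 46.8% lower. The median difference was 0.057 over the 10 genes and 0.010 over all, but with each gene as the median of its probe sets past the floor it was 0.015 over the 10 genes. None of the 10 reached 1.5-fold, as 0.211% of all measured genes did upwards and 0.172% downwards. SIPA1L2 was the 1 gene at least 1.2-fold higher, a size reached by 4.96% of all measured genes. The number at least 1.2-fold lower was 0, against 3.58% of all. Over the 25 probe sets past the floor, 14 were higher, where 49.4% of all probe sets past the floor were. Of the 25, 3 were at least 1.2-fold higher, all of SIPA1L2, and 1 was at least 1.2-fold lower, of RAP2B. Among all probe sets past the floor these sizes were reached by 4.84% and 4.91%. A RAPGEF1 probe set (11742023_a_at), at 83.3% of the control, fell just short of 1.2-fold lower. The difference of TERF2IP was 5.81 times as large in size as that of RAP1A and 10.6 times that of RAP1B on the log2 scale.

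**Figure D3:**
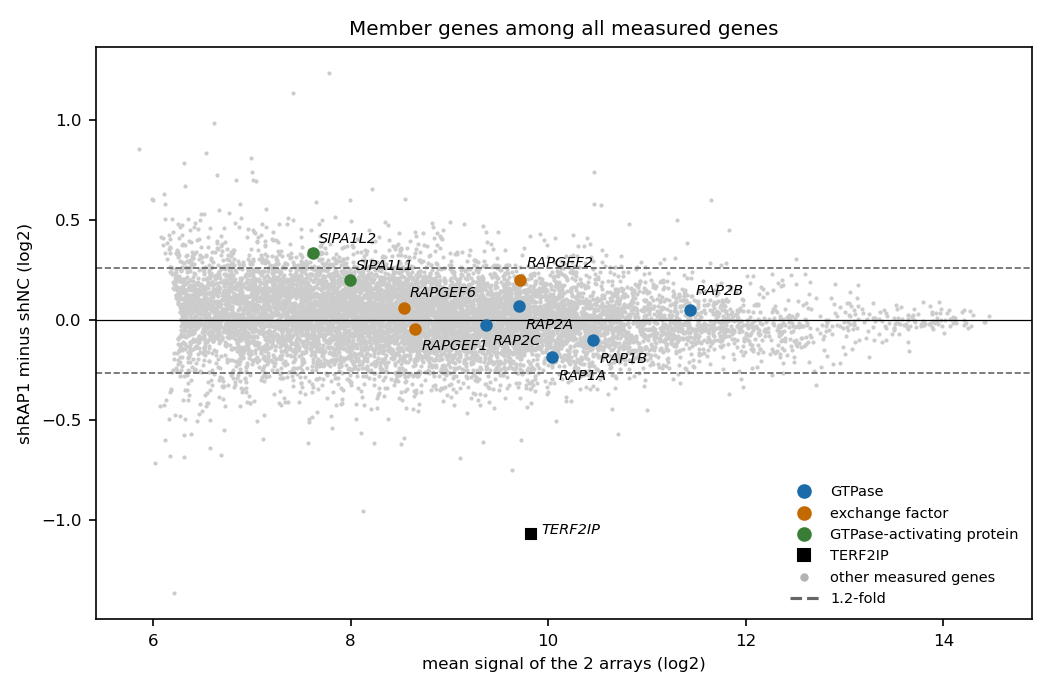
Difference (shRAP1 minus shNC, log2) against mean signal (log2) for the 10437 measured genes (grey), with the 10 RAP system genes coloured by role and TERF2IP as a black square. SIPA1L2, at 0.34, is the 1 coloured point past the dashed 1.2-fold lines; TERF2IP lies at −1.07.

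More than 1 probe set was past the floor for 9 genes, of which 3 (RAP2A, SIPA1L1 and SIPA1L2) were higher on each, 3 (RAP1A, RAP1B and RAP2C) were lower on each, and 3 (RAP2B, RAPGEF1 and RAPGEF6) had both directions. How often the probe sets of a gene share a direction over all genes is not given here. These counts therefore only describe the 9 genes. The 2 probe sets of RAP2C gave differences equal to within 1e-05, although their signals were not the same. The same held for 362 of 25514 pairs of probe sets of 1 gene (1.42%), in 358 of 6135 genes, and the cause was not tested.

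Genes around the RAP cycle were then described from lists by role, in which each gene is its brightest probe set past the floor. Of 13 listed GTPase-activating proteins beside the SIPA1L pair, 7 were measured and 7 of 7 were higher in shRAP1, against 53.2% of all measured genes, with a median of 0.12 and a range from 0.045 to 0.20. RAP1GAP2, a RAP1-specific activating protein known from platelets, was at 10.75 in shRAP1 and 10.55 in shNC on the log2 scale, a difference of 0.20. Its other probe sets past the floor reached down to −0.035. SIPA1L3, the other SIPA1-like gene, was at 9.66 in shRAP1 and 9.52 in shNC, a difference of 0.14. SIPA1, the founding gene of that family, was at 8.75 in shRAP1 and 8.63 in shNC, and RASAL2, an activating protein known mainly for RAS, at 7.30 in shRAP1 and 7.12 in shNC. None of the 7 reached 1.2-fold. Under the other settings tried the median of this list lay between 0.095 and 0.13. With each gene as the median of all its probe sets and no floor, 8 of 9 genes were higher and 1 was lower.

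Of 10 listed exchange factors beside the 3 above, 4 were measured, 2 higher and 2 lower, with a median of 0.019. RASGRP2, a calcium-regulated exchange factor, was at 6.40 in shRAP1 and 6.56 in shNC, and DOCK4 at 6.31 in shRAP1 and 6.21 in shNC, the last below the floor. RAPGEFL1 and RAPGEF5 were at 0.052 and −0.013. RAPGEF3 (EPAC1), which binds cyclic AMP, had 4 probe sets and none past the floor.

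Of 10 measured genes listed as adaptors or other partners of the exchange factors, 8 were higher, against 53.2% of all measured genes, with a median of 0.051. The list is broad, with CTNNB1 (0.0016) and PTPRK (0.024) among the 8. The 2 lower genes were BCAR3 (−0.098, with its other probe set at 0.044) and YWHAZ (−0.037). BCAR1 (p130CAS), which docks CRK, differed by 0.17, its 5 probe sets running from −0.021 to 0.24. The CRK-like adaptor CRKL differed by 0.11, and its 3 probe sets ran from 0.047 to 0.29. CBL, a ubiquitin ligase that binds CRK adaptors, was at 10.13 in shRAP1 and 9.98 in shNC, and its 3 probe sets past the floor were between 0.15 and 0.47. GAB1 was at 6.34 in shRAP1 and 6.11 in shNC, the last below the floor.

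Of 18 measured RAP1 effectors and adhesion partners, 12 were higher and 6 lower, where 53.2% of all measured genes were higher, in a range from −0.27 to 0.26 around a median of 0.075. The 12 include ARHGAP29, at 1.9e-05 on its brightest probe set, while its probe sets past the floor reached down to −0.33. HEG1, a receptor that anchors the KRIT1 complex at junctions, was lowest, at 6.48 in shRAP1 and 6.75 in shNC. TLN1, the talin that switches integrins on, was at 7.82 in shRAP1 and 8.03 in shNC, a difference of −0.21, with its second probe set at 0.042. TLN2, the other talin, was at 6.65 in shRAP1 and 6.39 in shNC, a difference of 0.26, and RGS14 was at 0.18.

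The 5 measured RAP2 effectors had a median of 0.045, with 3 higher and 2 lower. The kinase genes MINK1, TNIK and MAP4K4 differed by 0.12, −0.11 and −0.065, and probe sets of TNIK and of MAP4K4 past the floor had both directions. RASSF2 was at 0.17. Of 9 genes for lipid modification or transport of RAP proteins, 3 were lower and 6 higher (median 0.027). PGGT1B, the specific subunit of the enzyme that geranylgeranylates RAP1, was at 8.87 in shRAP1 and 9.05 in shNC, with both probe sets lower (−0.21 and −0.18). The protease gene ZMPSTE24, better known for processing of prelamin A, was at −0.19, RCE1, which trims prenylated proteins, at 0.15, and ZDHHC9, of a palmitoyltransferase of RAS proteins, at 0.12.

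Of 15 measured RAS family GTPases outside the RAP genes, 7 were lower and 8 higher (median 0.0058). GEM was at 7.39 in shRAP1 and 7.11 in shNC, a difference of 0.29, and DIRAS3 at 7.16 in shRAP1 and 7.43 in shNC, a difference of −0.27. HRAS was at −0.20 with both probe sets lower, and NKIRAS2 at 0.17 with 4 probe sets between 0.059 and 0.27. Of 12 measured genes of cyclic AMP synthesis, breakdown and response, 5 were lower and 7 higher (median 0.052). Cyclic AMP acts upstream of EPAC exchange factors, but the protein kinase A subunit genes in this list do not. PDE4B, a cyclic AMP phosphodiesterase, was at 10.42 in shRAP1 and 10.87 in shNC, a difference of −0.44, and its 4 probe sets were all lower, between −0.61 and −0.44. PDE4A, its paralogue, was at 9.67 in shRAP1 and 9.44 in shNC, a difference of 0.23 on 1 probe set. The adenylyl cyclase gene ADCY9 was at 0.31 with another probe set at −0.14, and ADCY3 was at 0.15. Over all lists, 53 of 80 measured genes were higher and 27 lower, and 3 genes reached 1.2-fold in each direction. Among all measured genes 53.2% were higher, and 4.96% and 3.58% were at least 1.2-fold higher and lower, so 3 of 80 is near the share over all genes. The 6 genes were GEM, TLN2 and ADCY9 upwards and HEG1, DIRAS3 and PDE4B downwards.

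**Figure D4:**
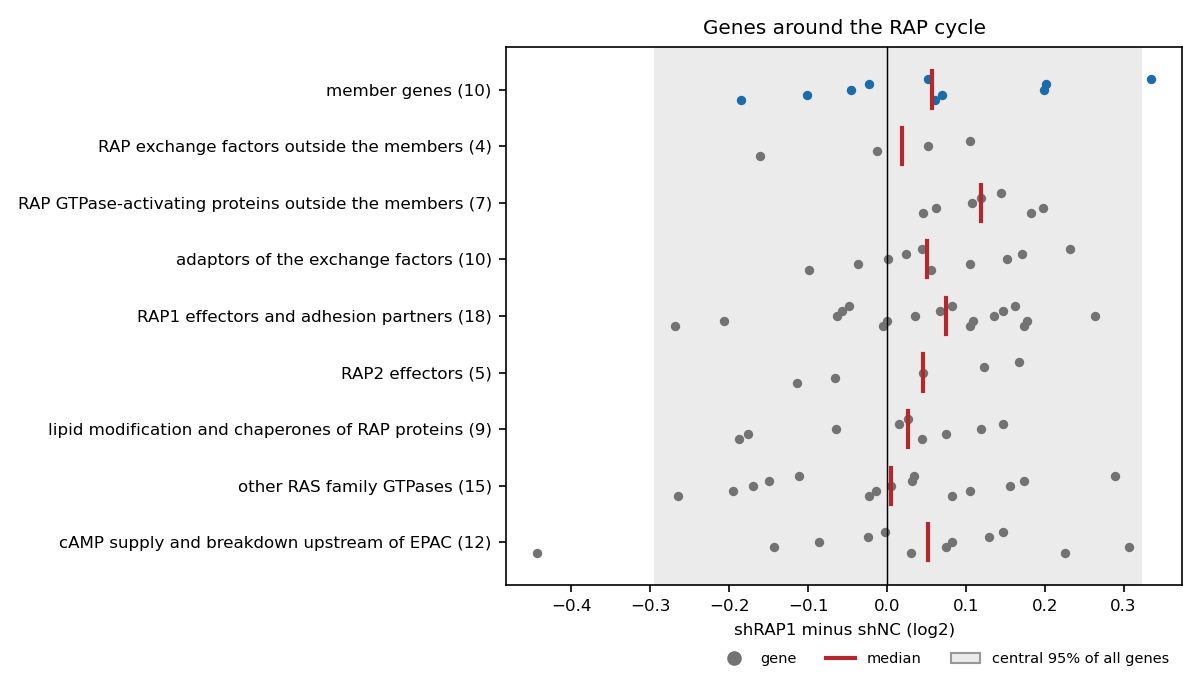
Difference (shRAP1 minus shNC, log2) of each measured gene of the RAP system (top row) and of the 8 related lists, with the number of measured genes in brackets, red bars at the medians and a grey band over the central 95% of all measured genes. All 7 points of the GTPase-activating proteins lie to the right of 0, between 0.045 and 0.20.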

How the data were processed

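RNA from 1 HCT116 culture per group was measured on single-colour Affymetrix 3′ expression arrays, with amplification and biotin labelling per the labels' protocols. The authors deposited 1 intensity per probe set and array, on a linear scale to judge by the range, and the 1 tool in the submitters' processing notes is RMA. Neither its version nor which arrays were normalised together is stated in the labels. Both arrays had the same highest value, 25726. RMA corrects background, equalises the distributions of arrays and summarises each probe set, so differences are relative to the other genes and tend to be compressed at low signal.

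From these values log2 was taken with no offset. Of 49293 non-control probe sets, 44988 had 1 gene symbol in the platform annotation and were used, while 1832 with several symbols and 2473 with none were not. A further 102 were array controls. A gene was its brightest probe set past the floor, which gave 10437 measured genes. Sizes of 1.2-fold and 1.5-fold were counted. SDs over the 500 nearest genes or probe sets describe the spread between genes, not an experimental error. All probe sets of the 10 genes and TERF2IP are given by value or by range, and up to 4 genes of each related list with the largest differences. Others (RAPGEF3, ARHGAP29, BCAR3, CTNNB1, PTPRK, YWHAZ and the marker genes) were named after their values were seen. The members, lists and sizes were chosen with earlier results of these data known. With 1 array per group no likeness of pattern between genes could be measured. The log2 differences, the recovery of planted changes and the lowess centring were checked on simulated data with 1 probe set per gene. The choice of the brightest probe set and the floor were not checked in this way. The planted changes were larger than any difference of the 10 genes, so recovery of changes of those smaller sizes was not checked. The software was pandas 2.3.3, numpy 2.4.6, statsmodels 0.14.6 (for lowess) and matplotlib 3.10.9 under Python 3.11.15. Alternatives changed the probe set summary, the floor, the probe sets admitted, the centring and the offset.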

Additional observations from a re-analysis of the deposited data

How the results depend on the processing

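No paired analysis was possible because the 2 groups share 1 replicate number and hold 1 array each, and no replicate could be left out. Over 7 alternatives, of which the median of all probe sets with no floor was chosen after seeing the data, the 10 genes gave 66 recomputed differences. Of these, 65 moved by less than the SD of genes of like brightness, and 1 moved by more: RAP2B, at −0.12 with the median of its probe sets past the floor. The sign changed for 2, this one and RAPGEF1, at 0.056 once probe sets ending in _x_at or _s_at were dropped. Part of the 65 could not move, so their number does not measure stability. With no floor or a higher one, each gene still measured kept its brightest probe set and so its value. The same held where the brightest probe set was not among those dropped. RAP1A stayed between −0.22 and −0.17, RAP1B between −0.13 and −0.086, RAPGEF2 between 0.20 and 0.21, SIPA1L1 between 0.11 and 0.20 and SIPA1L2 between 0.30 and 0.41. Of the 10 genes, 1 was at least 1.2-fold higher, but 0 were with the floor at the 75th percentile (312 on the linear scale), since SIPA1L2 is dimmer than that floor. SIPA1L1 had no value there either, and RAP1B, RAPGEF2 and TERF2IP had none without the less specific probe sets. The median over the 10 genes lay between 0.015 and 0.060, and TERF2IP between −1.07 and −1.05. Over all measured genes, the counts at least 1.2-fold higher and lower were 518 and 374. They were 1235 and 893 with no floor and, in the same order, 202 and 212 at the 75th percentile floor and 864 and 676 with the median of all probe sets and no floor. Of 55 recomputed list medians, 4 moved by over 0.05, in the RAP2 effectors (−0.065 with the higher floor, which left 1 gene, MAP4K4, and −0.0083 with lowess centring) and in lipid modification (−0.037 with either median of probe sets). The cause of the other 3 was not tested. Smaller moves also changed signs, as several medians were small. The listed exchange factors were at −0.027 without the less specific probe sets and −0.028 with lowess centring. In the same order, other RAS family GTPases were at −0.0039 and −0.036, with −0.014 for the median of probe sets past the floor. Lipid modification was at −0.0070 without the less specific probe sets. Medians of the activating proteins, adaptors, RAP1 effectors and cyclic AMP genes stayed positive. The precision of every value is limited by 1 array per group.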

Other observations

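Probe sets annotated to both RAP1B and RAP1BL were assigned to no gene. One (11753055_s_at) had 443 in shRAP1 and 493 in shNC, or 90.0% of the control. The other (11753623_s_at) had 281 in shRAP1 and 327 in shNC, or 85.8% of the control. Their differences of −0.15 and −0.22 had the same sign as those of the RAP1B probe sets. Whether these probes also read other transcripts was not tested.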
